A study of Homo sapiens with 5 samples.

Results

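In MDA-MB-231 cells, 33 genes were raised after 10 days at 1% O2 and were still high after the cells had been returned to 20% O2 for a further 10 days. These genes were selected on their measured values. Each had a normalised level (CPM, counts scaled to library depth, adjusted with TMM factors and used as deposited) of 3 or more in the 1% O2 library of day 10 and in the reoxygenated library. With 0.5 added to all values, each was also at least 2 times as high in both of these libraries as in both 20% O2 libraries. Of 26475 rows in the table, 44 met these thresholds. Symbols with a hyphen, symbols of several large or poorly characterised families and 8 named genes were not eligible, which left out 11 of the 44: CEMIP, COL4A5, CYP1A1, CYP1B1, DBH-AS1, FLG, GDF15, LINC01583, LOC100131564, PDK4 and PTGS2. The 33 genes were 0.26% of the 12672 eligible genes that reached 1 CPM in at least 1 library, a filter that all 33 passed. They were 3.51% of the 940 eligible genes that met the same thresholds at 10 days of 1% O2 alone, and the other 907 are called the other raised genes here. Because 4 of the 5 libraries served to choose the genes, their levels in those 4 libraries are a description and carry no test.

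MDA-MB-231 is a widely used human breast cancer line that lacks the hormone receptors. The series compared short with long hypoxia and asked what remained after oxygen was restored, with 1 library for each of 5 conditions: 1 day at 20% O2, 1 day at 1% O2, 10 days at 20% O2, 10 days at 1% O2, and a reoxygenated culture that had first 10 days of 1% O2 and then 10 days of 20% O2. No drug, gene deletion or other agent is named in the labels, and 1 cell line stands for the tumour type. The deposited expected counts summed to between 7719797 (reoxygenated) and 12544953 (20% O2, day 10) per library, so that 1 count corresponded to 0.0816 to 0.126 CPM. With 1 library per condition there was no replicate check, and every difference compares libraries rather than conditions. Intervals are exact Clopper-Pearson 95% intervals of the ratio of counts, put on the log2 scale, and cover counting error only. Reoxygenated cells had also been in culture longer than any other, without a 20% O2 library of equal age, so that reoxygenation and time in culture cannot be told apart. In these bulk libraries more cells with a transcript and more of it per cell cannot be told apart either.

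Cells sense low oxygen mainly through prolyl hydroxylases, which mark the alpha subunits of the hypoxia-inducible factors (HIF) for destruction while oxygen is present. When oxygen is scarce the factors bind the core letters ACGTG or GCGTG in DNA and raise genes of glycolysis, pH control and blood vessel growth, and these transcripts usually return quickly once oxygen comes back. Long hypoxia also slows protein synthesis and cell division, and it engages stress pathways that restrain the growth kinase mTORC1 or prime the cell for apoptosis.

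Of the line's identity markers, VIM, CD44, AXL and CAV1 were high in all 5 libraries (VIM at 977 to 2229 by TMM-scaled value). CDH1, ESR1 and PGR were at 1.08 or less. EPCAM (14.8 to 29) and GATA3 (6.23 to 9.91), which were listed as low markers, were detected at modest levels. Among listed markers of luminal breast cells, KRT8 (253 to 472), KRT18 (343 to 485) and KRT19 (95.8 to 145) were well expressed. FOXA1 was at 1.23 or less. Classical HIF genes were far below their chronic level in the reoxygenated library, though not all at the level of 20% O2. CA9, the carbonic anhydrase of pH control, stood at 8.66 at 20% O2, 68.7 at 1% O2 and 3.56 in reoxygenated cells (the first pair at day 10), and NDRG1 stood at 84.5, 3878 and 61.8. EGLN3, which encodes a HIF prolyl hydroxylase, stood at 4.58, 67.8 and 4.66, and ANGPTL4, an inhibitor of lipoprotein lipase, at 5.66, 130 and 9.93. Of 15 markers of fibroblasts, endothelium, blood, liver and neurons, HBB and CD3E were at 0 in every library. The summed level of the 15 was 16.2 in the 1% O2 library of day 10 and 4.44 to 7.84 in the other 4 libraries. The blood marker PTPRC stood at 2.68 in the 1% O2 library of day 10 and at 0.0976 to 1.17 elsewhere. CD14 (blood, 3.83), RBFOX3 (neuron, 2.68), COL3A1 (fibroblast, 2.59) and CDH5 (endothelium, 1.34) were also highest in that library. DCN, LUM, PDGFRA, PECAM1, APOA1 and SYP were not. Per library, 3 to 6 of the markers were at 0. Their part in the levels described here was not tested.

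The 33 genes held a part of their hypoxic level, and most had come down. After 10 days at 1% O2 they stood 2.24 to 10.1 times as high as at 20% O2 (median 3.84), and in reoxygenated cells 2.07 to 3.68 times as high (median 2.44). On the log2 scale, all 33 were at least 2-fold above the 20% O2 library of day 10 in both, as their selection required, where 14.4% of the 13940 genes compared were so at 1% O2 and 3.4% in reoxygenated cells. The reoxygenated level was between 22.4% (TCP11L2) and 114% (GPRC5C) of the level at 1% O2, with a median of 66.5%, and the other raised genes had a median of 37.8%. By this ratio 31 of the 33 were lower in reoxygenated cells than at 10 days of 1% O2, and the interval of the difference lay below 0 in 20. Intervals were not counted over the other genes, so nothing is read from that count. At least 2-fold lower were 9 of 33 genes (27.3%), against 71.1% of the other raised genes and 11.2% of all genes compared: TCP11L2, KLF9, CCNG2, CYTH4, FLJ26245, NFATC4, KLHL24, THBS3 and DHRS3. The selection itself demanded a high reoxygenated level, so nothing is read from this contrast with the other raised genes.

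**Figure D1:**
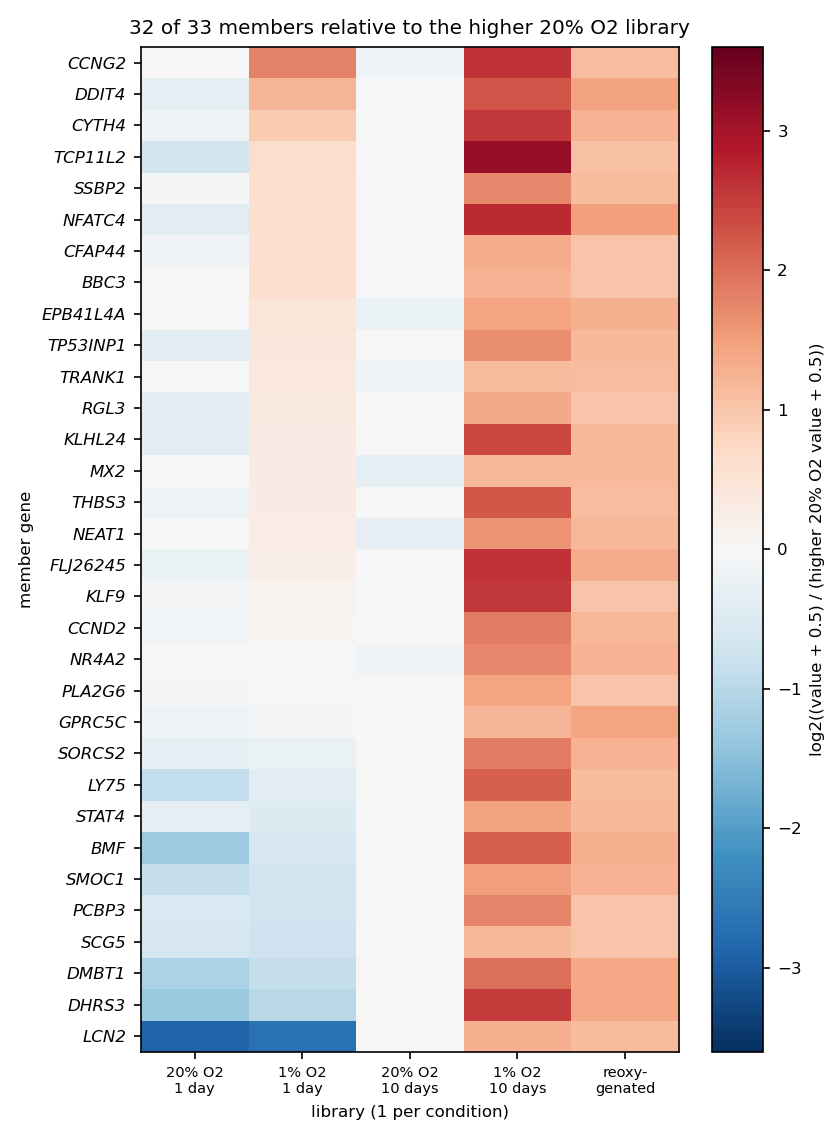
Rows are 32 of the 33 genes and each column is 1 library. Colour gives log2 of the TMM-scaled value plus 0.5 over that of the higher 20% O2 library, with genes ordered by their value after 1 day at 1% O2. The columns for 10 days at 1% O2 and for reoxygenated cells are red throughout, as the selection required, whereas the column for 1 day at 1% O2 is red at the top, near white in the middle and blue at the bottom.

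Values below are TMM-scaled CPM, given in the order 20% O2 day 1, 1% O2 day 1, 20% O2 day 10, 1% O2 day 10 and reoxygenated. Log2 differences come from TMM-scaled log2 CPM with a prior count of 2.

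The first group holds regulators of growth and the cell cycle, with KLHL24 placed beside them. DDIT4 (REDD1, a stress protein that restrains mTORC1; chromosome 10, 72273924 to 72276036) had levels of 37.3, 112, 47.4, 228 and 129. It was high after 1 and after 10 days of 1% O2 and, with 1052 counts, stayed above both 20% O2 libraries after reoxygenation. Per kilobase of its longest annotated transcript it stood highest of the 32 genes with a length, at 73.8 in reoxygenated cells. That rank depends on the transcript length used for each gene. CCNG2 (cyclin G2, an atypical cyclin linked to growth arrest; chromosome 4, 77157207 to 77170060) had levels of 14.6, 52.0, 13.4, 90.6 and 31.8. Both hypoxic libraries stood far above the 20% O2 pair, and reoxygenated cells kept 35.1% of the chronic level. KLHL24, which encodes an adaptor of a cullin ubiquitin ligase, had levels of 10.1, 16.3, 13.2, 72.0 and 30.5, so that the day 10 library at 1% O2 stood apart from the rest. CCND2 (cyclin D2, which drives entry into the division cycle) had levels of 5.76, 6.47, 6.16, 23.7 and 14.7, with the first 3 libraries close together. CCND2 shares 18.1% of its sampled 50-base words with an overlapping transcript, so its reads are uncertain.

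No listed relative of these genes met the thresholds, which 0.26% of all eligible genes met. CCND1, the abundant D-type cyclin of this line, had levels of 923, 801, 906, 615 and 711, lowest in the day 10 library at 1% O2. CCNG1 had 105, 101, 53.4, 77.0 and 81.2, with its lowest value at 10 days of 20% O2. DDIT4L, the relative of DDIT4, had 2.83, 4.25, 2.33, 8.82 and 1.96, so that it was high at 10 days of 1% O2 and back at the 20% O2 level in reoxygenated cells.

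**Figure D2:**
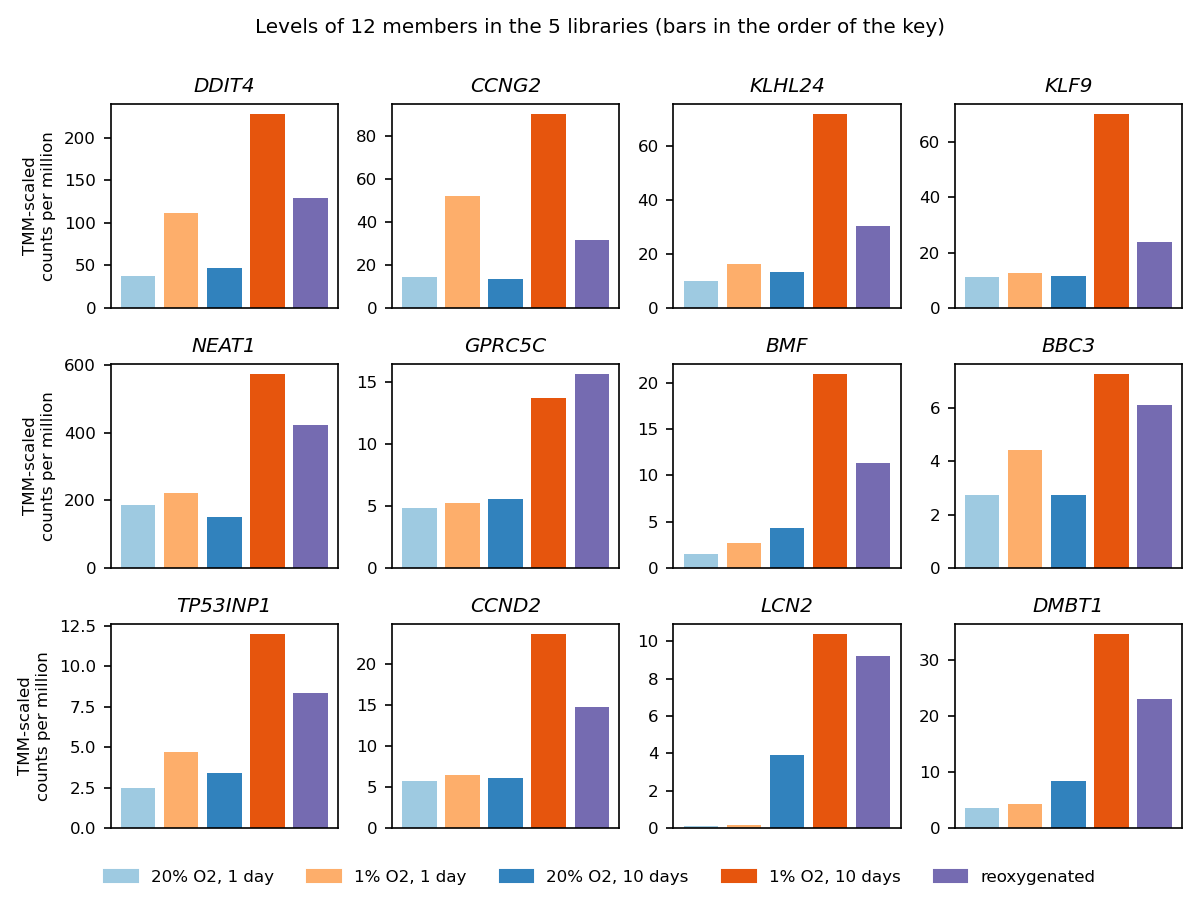
Bars give TMM-scaled CPM of 12 of the genes in the 5 libraries, with 1 library per condition and no error bars. Each axis starts at 0 and has its own scale; DDIT4 and CCNG2 already stand high after 1 day at 1% O2, GPRC5C is highest in reoxygenated cells, and LCN2 and DMBT1 are higher at 10 than at 1 day of 20% O2.

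Promoter letters are shown for the genes that were at least 2-fold higher after 1 day at 1% O2 than after 1 day at 20% O2. The selection did not use the first of these libraries but did use the second. CYTH4 is the fifth such gene. Each window runs from 250 bases before to 50 bases after the start site of RefSeq (GRCh38.p14), 5′ to 3′ on the plus strand of the chromosome. Capitals mark ACGTG on either strand, the HIF core that also forms part of the E-box CACGTG. The windows are chr4:77156957-77157256 for CCNG2, chr10:72273674-72273973 for DDIT4, chr14:24366661-24366960 for NFATC4 and chr12:106302483-106302782 for TCP11L2.
CCNG2: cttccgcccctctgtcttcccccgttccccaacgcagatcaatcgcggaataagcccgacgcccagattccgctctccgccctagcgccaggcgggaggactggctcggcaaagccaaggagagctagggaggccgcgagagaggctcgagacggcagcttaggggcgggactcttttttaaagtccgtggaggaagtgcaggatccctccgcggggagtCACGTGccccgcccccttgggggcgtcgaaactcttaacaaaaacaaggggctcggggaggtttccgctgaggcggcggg
DDIT4: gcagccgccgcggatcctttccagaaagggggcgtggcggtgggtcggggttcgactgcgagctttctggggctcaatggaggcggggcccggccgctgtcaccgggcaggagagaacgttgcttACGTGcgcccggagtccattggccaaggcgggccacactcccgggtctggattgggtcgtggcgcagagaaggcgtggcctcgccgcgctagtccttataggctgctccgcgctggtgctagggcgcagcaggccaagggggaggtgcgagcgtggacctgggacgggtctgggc
NFATC4: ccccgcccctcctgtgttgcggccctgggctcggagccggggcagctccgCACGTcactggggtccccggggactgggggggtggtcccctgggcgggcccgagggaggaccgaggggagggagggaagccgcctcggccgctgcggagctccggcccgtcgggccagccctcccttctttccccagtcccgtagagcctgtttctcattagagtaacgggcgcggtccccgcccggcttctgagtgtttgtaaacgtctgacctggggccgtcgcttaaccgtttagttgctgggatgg
TCP11L2: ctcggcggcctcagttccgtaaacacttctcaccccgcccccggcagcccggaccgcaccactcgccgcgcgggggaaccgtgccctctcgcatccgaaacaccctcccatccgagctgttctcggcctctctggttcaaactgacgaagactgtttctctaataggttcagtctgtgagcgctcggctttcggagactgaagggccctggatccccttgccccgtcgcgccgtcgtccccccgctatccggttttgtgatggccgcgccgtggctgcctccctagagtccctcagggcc
In CCNG2 the letters CACGTG give 2 overlapping matches, one per strand, which begin 30 and 29 bases before the start site. DDIT4 has 1 match that begins 125 bases before its start, NFATC4 has 1 on the opposite strand at 200 bases before, and the TCP11L2 window holds none. That window lies inside the RefSeq span of TCP11L2, which begins at 106297935, whereas the CCNG2, DDIT4 and NFATC4 windows include the start of their gene's span. Letters at the start of the TCP11L2 span were not examined. ACGTG was found in 7 of the 22 promoters on hand for the 33 genes, and in 26.7% of 10989 promoters of the genes compared. The other HIF core, GCGTG, which is not marked here, was found in 5 of the 22 and in 50.4% of the 10989, and the DDIT4 window holds 3 matches to it. Since 66.7% of the 33 had a promoter, below 80%, a comparison of motif or GC content between these sets is void. A match is a description of letters and not a bound site.

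Genes of cell death and the p53 response formed the next group. BBC3 (PUMA, a pro-apoptotic BCL2 family member) had levels of 2.73, 4.44, 2.75, 7.29 and 6.13, with reoxygenated cells at 84.2% of the chronic level. BMF (Bcl2 modifying factor, of the same pro-apoptotic class) had levels of 1.46, 2.68, 4.33, 21.0 and 11.4, and its 20% O2 libraries already differed by 1.44 (0.70 to 2.49) on the log2 scale. TP53INP1, a stress protein of the p53 response, had levels of 2.44, 4.72, 3.42, 12 and 8.34. All 3 genes were highest at 10 days of 1% O2 and next highest in reoxygenated cells. The other pro-apoptotic relatives listed for BMF (BAD, BCL2L11, BID, BIK and PMAIP1) included 1 of 5 compared, BIK, that was at least 2-fold higher after 10 days at 1% O2, and none that was so in reoxygenated cells, shares that were not tested against those over all genes. On a list of p53 target genes, 3 of 29 compared were at least 2-fold higher at 10 days of 1% O2 and 2 in reoxygenated cells, and those 2 were BBC3 and TP53INP1. The median of that list was −0.22 at 1% O2 and −0.02 in reoxygenated cells, against 0.02 and 0.00 over all genes compared. Of all genes compared, 14.4% were at least 2-fold higher at 1% O2 and 3.4% in reoxygenated cells. The protein-coding gene NDUFAF6 overlaps TP53INP1 on the opposite strand and had levels of 10.5, 9.16, 9.50, 5.18 and 8.83.

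Nuclear factors formed a further group. KLF9 (a zinc-finger factor induced by glucocorticoids; chromosome 9, 70384604 to 70414657) had levels of 11.1, 12.5, 11.5, 70.1 and 23.8. It lay near the control level after 1 day at 1% O2, and in reoxygenated cells it stood at 33.9% of its chronic level. Of 12 other KLF genes compared, 6 were at least 2-fold higher after 10 days at 1% O2 (KLF4, KLF5, KLF7, KLF11, KLF12 and KLF13) and none in reoxygenated cells. The shares over all genes compared were 14.4% and 3.4%. KLF7 had levels of 15.2, 25.9, 22.8, 97.6 and 17.8, so that its reoxygenated value lay between those of the 20% O2 libraries.

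NR4A2 (NURR1, an orphan nuclear receptor of the immediate early class) had levels of 3.71, 3.79, 3.33, 13.4 and 9.44, the first 3 libraries within 0.5 of each other. Its paralog NR4A1 had 2.83, 2.31, 3.83, 11.3 and 4.78. NFATC4, a transcription factor activated by calcineurin, had 1.27, 3.05, 1.83, 14.6 and 6.01, and it had the largest ratio by the selection, 2.79. STAT4, a cytokine-activated factor best known from lymphocytes, had 0.879, 0.740, 1.25, 4.31 and 3.43. SSBP2, an adaptor of LIM-domain transcription complexes, had 2.54, 4.35, 2.67, 9.97 and 6.50. All of these factors were highest at 10 days of 1% O2 and next highest in reoxygenated cells. STAT4 and NFATC4 rest on few reads, with 28 and 49 counts in the reoxygenated library. No other STAT gene of 6 compared was 2-fold higher in either library, and of the other NFAT genes NFATC1 was 2-fold higher at 10 days of 1% O2.

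RNA-binding and nuclear RNA genes included the most counted of the set. NEAT1, the long non-coding RNA that scaffolds paraspeckles (chromosome 11, 65422798 to 65445540), had 1893, 2391, 1805, 5988 and 3440 counts and levels of 185, 221, 150, 574 and 422. Reoxygenated cells kept 73.5% of the chronic level, with a log2 difference of −0.41 (−0.47 to −0.35) between them. Its neighbour MALAT1, another nuclear RNA, had 644, 706, 779, 1749 and 1384, with a ratio of 1.78 by the selection, under the limit of 2. Per kilobase of its longest annotated transcript, of 22743 bases, NEAT1 stood at 18.6 in reoxygenated cells, second to DDIT4. A shorter transcript would give a higher value, and transcripts of a gene were not separated here, so this rank is uncertain. PCBP3, a poly(rC)-binding protein gene, had 0.976, 0.832, 1.67, 6.90 and 3.92, while none of its 3 relatives compared was 2-fold higher in either library.

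Among genes of secreted proteins, LCN2 (lipocalin 2, which binds iron-loaded siderophores; chromosome 9, 128149453 to 128153453) had 1, 2, 47, 109 and 75 counts. Its levels were 0.0976, 0.185, 3.91, 10.4 and 9.20, near 0 in both day 1 libraries whatever the oxygen. DMBT1, a secreted scavenger-receptor glycoprotein, had levels of 3.51, 4.35, 8.33, 34.6 and 22.9. SMOC1, a matrix protein related to SPARC, had 0.976, 1.2, 2.17, 7.09 and 5.89. In these 3 genes the 20% O2 library of day 10 lay at least 2-fold above that of day 1. THBS3, a thrombospondin, had 2.05, 3.05, 2.42, 13.3 and 5.76. SCG5, a chaperone of a prohormone convertase, had 0.976, 0.832, 1.75, 4.70 and 4.05, the smallest ratio by the selection. Of the pair, THBS3 came down further, to 43.3% of its chronic level, while SCG5 stood at 86.1%. THBS1, the abundant thrombospondin of the line, had 789, 864, 945, 340 and 801, the reverse order at day 10.

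Receptors at the cell surface were GPRC5C, SORCS2 and LY75. GPRC5C, an orphan G protein-coupled receptor (chromosome 17, 74432088 to 74451658), had 4.88, 5.27, 5.58, 13.7 and 15.7. It had its highest level in reoxygenated cells, at a log2 difference of 0.23 from 10 days of 1% O2 with an interval of −0.12 to 0.59. Its relative GPRC5B had 14.2, 17.7, 18.4, 45.6 and 13.4, and was thus back at the 20% O2 level. SORCS2, a sorting receptor that also binds neurotrophin precursors, had 3.32, 3.70, 4.41, 17.0 and 11.3. LY75, an endocytic receptor of the mannose receptor family, had 3.03, 4.44, 6, 28.3 and 13.9. Reoxygenated cells had 66.5% of the chronic level of SORCS2 and 49.0% of that of LY75. LY75 shares 65.6% of its sampled words with the read-through transcript LY75-CD302, which had 4.59, 3.42, 9.33, 17.0 and 8.22, so the split of reads between the rows is uncertain.

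MX2, an interferon-induced GTPase that restricts certain viruses, had 2.34, 2.96, 1.75, 5.85 and 5.89. The last 2 libraries were level, with a log2 difference of 0.04 (−0.53 to 0.62). On a list of interferon-stimulated genes, 5 of 44 compared were at least 2-fold higher after 10 days at 1% O2 and 16 in reoxygenated cells, and MX2 was the 1 gene in both groups. The median of the list was −0.01 at 1% O2 and 0.75 in reoxygenated cells, against 0.02 and 0.00 over all genes compared. Of all genes compared, 14.4% were at least 2-fold higher at 1% O2 and 3.4% in reoxygenated cells. The paralog MX1 had 5.37, 5.09, 5.66, 7.96 and 10.4, 0.92 above the 20% O2 library of day 10 on the log2 scale after reoxygenation.

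Signalling and lipid enzymes were expressed at low levels. CYTH4, an exchange factor for ARF GTPases, had 0.879, 2.40, 1.00, 8.24 and 3.07, from 25 counts in reoxygenated cells, the fewest of the set. RGL3, an exchange factor for Ral GTPases, had 1.37, 2.59, 1.92, 5.75 and 4.41. EPOR overlaps RGL3 on the same strand and had 2.15, 1.94, 3.50, 11.9 and 6.01, so that its 2 highest libraries were the same as those of RGL3. DHRS3, a reductase that returns retinaldehyde to retinol, had 0.195, 0.370, 1.25, 9.59 and 4.05, from 2 counts in the first library. PLA2G6, a calcium-independent phospholipase, had 1.76, 1.85, 1.83, 5.75 and 4.29. Its genomic span overlaps that of MAFF on the opposite strand, which had 68.0, 82.3, 61.7, 152 and 54.7, its lowest value in reoxygenated cells.

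The remaining genes belong to none of these groups. TCP11L2 had 1.56, 4.53, 2.75, 27.9 and 6.25, the highest value at 10 days of 1% O2 over that at 20% O2, 10.1-fold, and the lowest share kept. CKAP4 overlaps it on the opposite strand and had 197, 183, 242, 196 and 222. TRANK1, a gene of tetratricopeptide and ankyrin repeats, had 8.01, 10.5, 7.25, 18.2 and 17.8, level between chronic hypoxia and reoxygenation. CFAP44, a protein of cilia and flagella, had 7.22, 12.3, 7.91, 20.8 and 16.8, but shares 38.9% of its sampled words with another transcript and is uncertain. EPB41L4A, a relative of the erythrocyte membrane protein band, had 1.46, 2.13, 1.17, 4.70 and 4.29, and its antisense gene EPB41L4A-AS1 had 7.61, 6.29, 8.91, 19.9 and 9.56. FLJ26245, with no entry in the reference used here, had 4.59, 6.57, 5.50, 36.2 and 14.6, or 40.3% of its chronic level after reoxygenation.

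**Figure D3:**
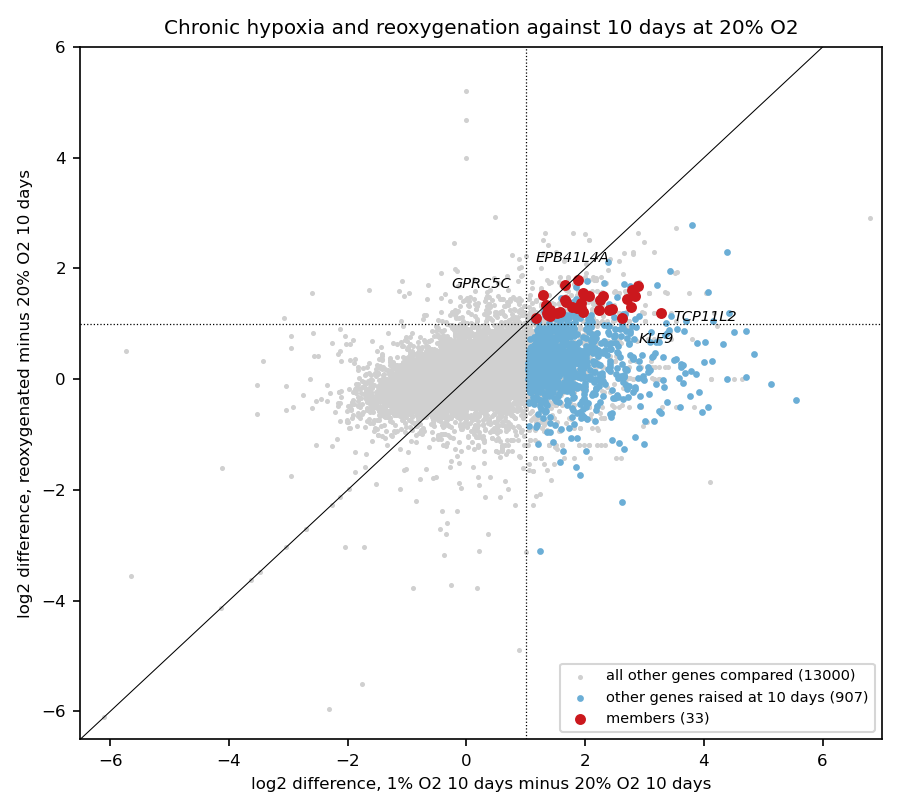
Each point is a gene, with its log2 difference from 20% O2 at day 10 after 10 days at 1% O2 (x axis) and in reoxygenated cells (y axis). Red points are the 33 selected genes, blue points the 907 other raised genes and grey points all other genes compared. Dotted lines mark a log2 difference of 1 and the diagonal marks equal differences; most red points lie below the diagonal, with GPRC5C above it.

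The library of 1 day at 1% O2 took no part in the selection, although both 20% O2 controls did. In it, 21 of the 33 genes stood above both 20% O2 libraries, 9 between them and 3 below both (STAT4, PCBP3 and SCG5). By log2 difference, 464 of the 907 other raised genes and 4480 of the 13940 genes compared stood above both. At least 2-fold above both were 3 genes, CCNG2, DDIT4 and CYTH4, which is 9.09% of the set, against 2.98% of the other raised genes and 0.681% of all genes compared. At least 2-fold above the 20% O2 library of day 1 were 5 genes, or 15.2%, against 8.49% of the other raised genes and 2.12% of all. Their log2 differences were 1.84 (1.59 to 2.12) for CCNG2, 1.60 (1.44 to 1.77) for DDIT4, 1.45 (0.72 to 2.47) for TCP11L2, 1.30 (0.34 to 2.75) for CYTH4 and 1.17 (0.32 to 2.34) for NFATC4.

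Over the whole set the difference after 1 day was smaller. The median log2 difference from 20% O2 at day 1 was 0.51, against 0.31 in the other raised genes and 0.00 over all genes compared. It was above 0 in 30 of the 33 genes, in 706 of the 907 other raised genes and in 6975 of the 13940 genes compared. Among the 33, its interval excluded 0 in 11 and included it in 22. Intervals were not counted over the other genes, so nothing is read from these counts. The genes whose interval lay above 0 were CCNG2, DDIT4, TCP11L2, CYTH4, NFATC4, TP53INP1, CFAP44, SSBP2, KLHL24, BBC3 and NEAT1. Against the higher of both 20% O2 libraries the median was 0.28 for the set, 0.01 for the other raised genes and −0.11 for all genes. Because the selection held both controls low, these shares and medians are not tests. KLF9 differed by 0.19 (−0.18 to 0.56) after 1 day and by 2.62 (2.37 to 2.91) after 10 days, and NR4A2 by 0.05 (−0.62 to 0.73) and 1.98 (1.52 to 2.59). In 32 of the 33 genes the level after 1 day at 1% O2 was below that of reoxygenated cells, and CCNG2 was the exception. Because the selection demanded a high reoxygenated level, nothing is read from this order.

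**Figure D4:**
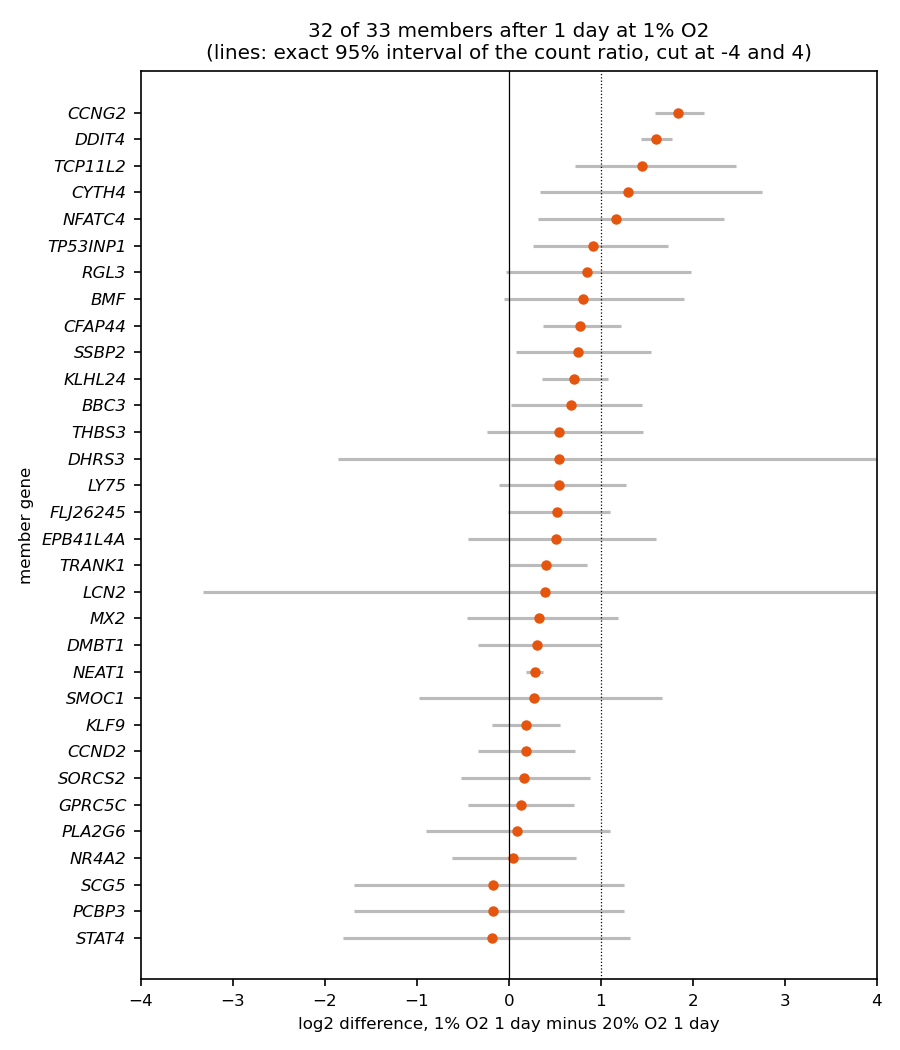
Points give the log2 difference of 32 of the 33 genes between 1 day at 1% O2 and 1 day at 20% O2, and lines the exact 95% interval of the count ratio, which covers counting error only. The dotted line marks a log2 difference of 1; CCNG2, DDIT4, TCP11L2, CYTH4 and NFATC4 lie beyond it, and the intervals of DHRS3 and LCN2 are the widest.

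Some of these genes also differed between the 20% O2 libraries. Between 1 and 10 days at 20% O2, 6 of the 33 (18.2%) were at least 2-fold higher at 10 days, against 9.92% of the other raised genes and 3.06% of all genes compared. Among them, log2 differences were 3.80 (2.77 to 10.65) for LCN2, 1.88 (0.56 to 5.84) for DHRS3, 1.44 (0.70 to 2.49) for BMF, 1.19 (0.67 to 1.83) for DMBT1 and 1.00 (0.04 to 2.36) for SMOC1. By TMM-scaled value 27 of the 33 were higher at 10 days. By log2 difference 26 were above 0, as were 640 of the 907 other raised genes and 6971 of the 13940 genes compared. The median log2 difference was 0.33, against 0.23 in the other raised genes and 0.00 over all genes. NEAT1 went the other way, with a difference of −0.31 (−0.40 to −0.21).

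Of the 33 genes, 9 were on any of 36 lists and symbol families, and 24 were on none. A member was found on 8 of the 36. The share of all genes compared that were on any list was not computed, so nothing is read from these counts. Of 65 HIF target genes compared, 44 were at least 2-fold higher after 10 days at 1% O2, and 3 were so in reoxygenated cells: CCNG2, DDIT4 and KLHL24, which are all in the set. That list does not include VEGFA, a well-known HIF target that was not eligible for the set. VEGFA had levels of 91.5, 165, 79.9, 444 and 160, and was likewise at least 2-fold above the 20% O2 library of day 10 in both libraries. It also missed the thresholds on its values, since its reoxygenated level was less than 2 times that of 20% O2 at day 1. The median of the HIF list went from 1.35 at 1% O2 to −0.11 in reoxygenated cells. Of 27 integrated stress response genes, 9 and 5 were higher, and DDIT4, ALDH1L2 and VEGFA were higher in both libraries. Of 35 immediate early and AP-1 genes, 10 and 2 were higher, and those 2 were NR4A2 and EGR3. Of 38 mitosis genes none was higher and 28 were at least 2-fold lower at 10 days of 1% O2, and none was so in reoxygenated cells. Growth factor ligands and receptors had 17 of 57 higher at 1% O2 and 0 in reoxygenated cells, and none of them is in the set. Over all 13940 genes compared, 2011 were higher and 982 lower at 10 days of 1% O2 (67.2% higher), 474 higher and 197 lower in reoxygenated cells, and 314 were higher in both. Scaled by library totals in place of TMM factors, the split was 2327 and 668 (77.7% higher), with a median over all genes of 0.14 in place of 0.02.

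**Figure D5:**
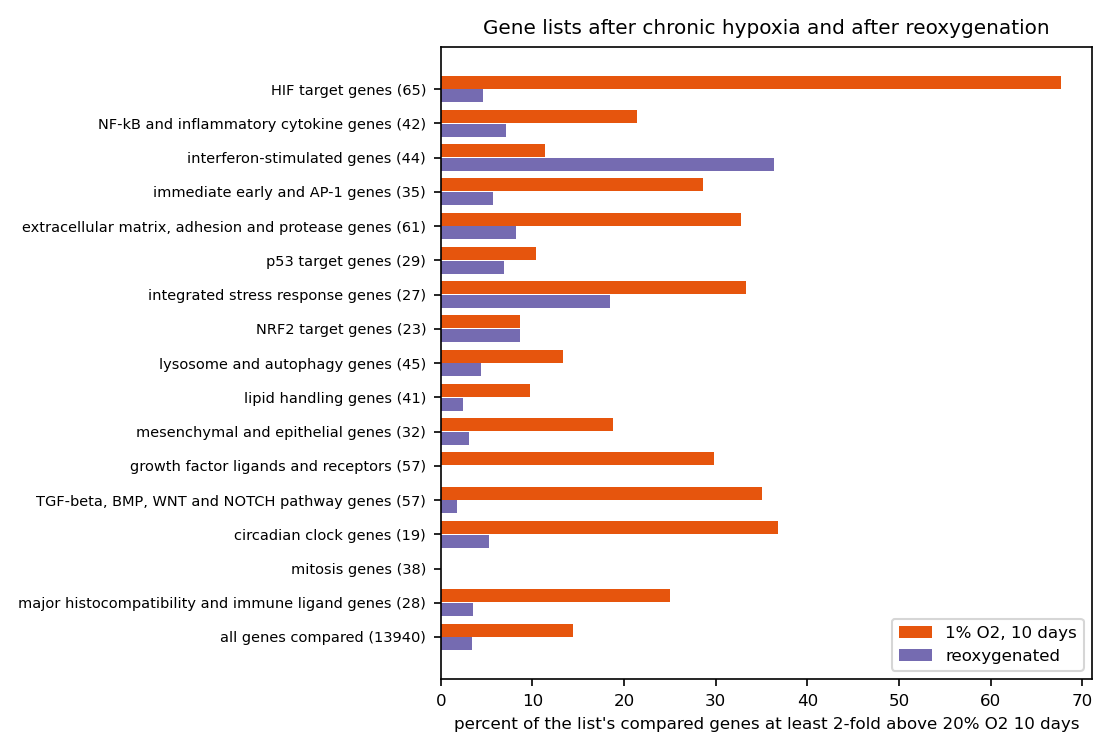
Bars give the percent of each list's compared genes that were at least 2-fold above the 20% O2 library of day 10, in orange after 10 days at 1% O2 and in purple after reoxygenation, with the number compared in brackets. HIF targets go from 44 to 3 genes of 65 and interferon-stimulated genes from 5 to 16 of 44; the last row gives all 13940 genes compared.

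The listed relatives of these genes did not meet the thresholds, which 0.26% of all eligible genes met. Of 74 listed relatives in 25 families, 63 were compared and 0 met the selection. At 10 days of 1% O2, 17 of the 63 were at least 2-fold higher and 1, THBS1, was lower, and in reoxygenated cells 0 were higher or lower. Over all genes compared, 14.4% were at least 2-fold higher at 1% O2 and 3.4% in reoxygenated cells. The relatives were listed after the set was known, and nothing particular to the set is read from this.

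The 33 genes did not sit together in the genome. The 32 with a RefSeq entry, of which 31 encode proteins, lay on 16 chromosomes with at most 3 on any of them. The closest pair, CYTH4 and PLA2G6, started 828987 bases apart on chromosome 22. The median longest transcript was 4376 bases for the set, 4170 for the other raised genes and 3666 for all genes compared. In 18 genes the span of another annotated gene overlaps on the opposite strand. The strand setting of the counting is not given in the sources used here, so reads from stretches that a pair shares cannot be told apart. How much exon sequence the pairs share was not examined.

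Many members lay close to the limits. The ratio used for selection ran from 2.02 to 2.79 with a median of 2.25, and 28 of the 33 were below 2.5. Just inside the limit were SCG5 (2.02), KLF9 (2.03) and RGL3 (2.03), and just outside it were ORAI3 (1.993), HERPUD1 (1.992), BAIAP3 (1.991) and LURAP1L (1.984). HERPUD1, a gene of the endoplasmic reticulum stress response, had levels of 35.1, 47.9, 31.4, 76.1 and 70.5. In reoxygenated cells 18 of the 33 had a TMM-scaled value under 10 and 12 had fewer than 50 counts. The interval of the reoxygenated level lay wholly beyond 2-fold above both 20% O2 libraries in 6 genes: NFATC4, DDIT4, DMBT1, FLJ26245, GPRC5C and NEAT1. The selection had demanded this excess in the same libraries, so these intervals are a description and no test. Such intervals were not counted over the other genes. A further 23 genes met the ratio at a level between 1 and 3.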

How the data were processed

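RNA of 5 cultures was sequenced after mRNA library preparation, per the labels' protocols. Per the submitters' processing notes, the authors used Bowtie2 2.1.0, RSEM 1.2.15 and edgeR with the hg38 build; the annotation is not given in the sources used here. The authors deposited expected counts per gene symbol, which were rounded to whole numbers here, and a signal of CPM scaled with TMM factors, whose values are whole-read multiples of those counts. Members were found on the deposited signal. Differences were computed from the rounded counts with edgeR 4.0.16 in R 4.3.3 (TMM factors, prior count 2) over the 13940 genes that reached 1 CPM in any library, and a size rule of log2 1 described them; DESeq2 1.42.0 gave size factors for an alternative. Intervals are exact 95% intervals of count ratios; amplified copies could not be told apart, so they cover counting error only. No p-value was computed with 1 library per condition. Of the deposited signal, all 132375 values came out as whole reads (within 0.05 of a read), and 132312 equalled the rounded counts; a count test between conditions leaves no residual degrees of freedom with 1 library each and was not run.

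The members and gene lists were chosen with earlier results of these data known. Named were all members of highest level, ratio or difference in either direction, those nearest the limits, and list members, and the rest are given for completeness, except 1 member that is counted but not reported here; genes ranked by correlation with the set's pattern were not named, since 5 libraries are too few. Promoters (GRCh38.p14) and printed gene spans came from RefSeq, and overlaps, lengths and shared 50-base words came from GENCODE release 29. Alternatives to the added value, level, ratio, controls, scaling and prior count were computed. Promoters and protein sequences of some members were not used here.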

Additional observations from a re-analysis of the deposited data

How the results depend on the processing

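The size of the set depended on the thresholds. In place of 33 genes, the selection gave 53 with 0.1 added to each value, 56 with a level of 1 or more, 15 with a level of 10 or more, 210 at 1.5 times both controls and 0 at 3 times. With one control it gave 220 genes (20% O2 at day 1) or 61 genes (20% O2 at day 10), and 67 with CPM of the library total; the cause was not tested. All 33 genes were among those selected in each of these, other than 15 at a level of 10 and 0 at 3 times. With 1 added 22 genes remained, all from the 33, with DESeq2 factors 48 genes met the rule, and with no symbols left out 44. Genes at or above their chronic level after reoxygenation numbered 3 with TMM log2 values (GPRC5C, MX2 and TRANK1 at 0.00) and 1 with library totals. Other counts and medians moved little over 6 alternatives each: 2 to 3 genes were 2-fold above both controls after 1 day at 1% O2, 8 to 10 were 2-fold lower after reoxygenation, and the median differences ran from −0.64 to −0.53 (reoxygenated minus 1% O2 at day 10), 0.39 to 0.55 (1% O2 at day 1) and 0.33 to 0.35 (20% O2, day 10 minus day 1). No paired analysis was possible because each condition had 1 library. Depth limits the weaker members, 12 of which had fewer than 50 counts in the reoxygenated library.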

Other observations

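Of the 11 rows that met the thresholds and were left out by symbol, several encode enzymes and secreted factors. Levels are TMM-scaled CPM in the order 20% O2 day 1, 1% O2 day 1, 20% O2 day 10, 1% O2 day 10 and reoxygenated. CYP1A1, a xenobiotic-metabolising enzyme, had 8.98, 9.62, 8.66, 99.0 and 31.9, and its relative CYP1B1 had 36.2, 39.5, 43.2, 120 and 203. CYP1B1 was thus highest in reoxygenated cells and CYP1A1 at 10 days of 1% O2, with both day 1 libraries close together in each gene. GDF15, a stress-induced cytokine, had 9.47, 13, 9.50, 49.7 and 36.1, the largest ratio of all 44 rows at 3.66.

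PDK4, a kinase that restrains pyruvate dehydrogenase, had 0.683, 2.13, 1.75, 6.04 and 6.50. CEMIP, which acts in hyaluronan breakdown, had 7.71, 15.8, 11.2, 23.7 and 33.7, and FLG (filaggrin) had 7.42, 13.8, 8.33, 25.8 and 35.7. CEMIP and FLG, like CYP1B1, stood higher in reoxygenated cells than at 10 days of 1% O2. These are values of single libraries with no test.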
